A study of Caenorhabditis elegans with 11 samples.

Results

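Histones are the small basic proteins that package DNA, and their genes in Caenorhabditis elegans carry the gene class name his. The members described here are the protein-coding genes of the deposited tables whose name begins with his-, and there were 72 of them among 46926 genes in the count table. The data came from whole L4 larvae, the last larval stage before adulthood, which were grown on HT115 E. coli. Total RNA came from Trizol extraction, and the libraries were stranded and sequenced as read pairs. The 11 libraries covered 4 genotypes. There were 3 libraries from double mutants, atfs-1(null);nhr-180(cmh19), 3 of atfs-1(null), 2 of nhr-180(cmh19), which carry the replicate numbers 2 and 3, and 3 of wildtype animals. The wildtype libraries carry the strain name N2 in their library names. ATFS-1 is the transcription factor that drives the mitochondrial unfolded protein response, and NHR-180 belongs to the nuclear hormone receptors. The sources used here do not give the lesion of the cmh19 allele or the method by which messenger RNA was selected. The labels call the replicates biological replicates.

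In animals, core histone genes are mostly intronless, occur in clusters, and are transcribed when DNA is replicated. Their messenger RNAs usually end in a stem-loop, which the stem-loop binding protein holds, and not in a poly(A) tail. Replacement histones such as H3.3 are made from genes with introns and polyadenylated transcripts, also outside S phase, and are placed into chromatin without replication. Larvae at the L4 stage contain a proliferating and differentiating germ line, in which sperm are made before oocytes, so histone transcripts of a whole larva come from many cell types. In such bulk samples, fewer cells of a type and less RNA per cell cannot be told apart.

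Libraries held between 20860822 and 22921602 counts, and histone genes took between 0.0605% and 0.0921% of them. The targeted genes followed the labels. There were at most 99 counts of atfs-1 in double mutant and atfs-1(null) libraries, against at least 902 in nhr-180(cmh19) and wildtype libraries. For nhr-180 there were at most 13 counts in libraries carrying cmh19, against at least 65 in the others. A pair of libraries stood apart in their sperm transcripts. The median log2 level of 47 sperm genes, set against the wildtype mean, was 1.67 in atfs-1(null) replicate 1, the highest of all libraries, and -0.79 in wildtype replicate 2, the lowest. Wildtype replicate 1, at 0.61, lay close to nhr-180(cmh19) replicate 2, at 0.70. For 20 oocyte genes, wildtype replicate 2 was again the lowest, at -0.519. There atfs-1(null) replicate 1, at 1.735, lay below all double mutant libraries, at 1.845 to 2.187. Values without one or the other of the libraries that stood apart are given beside the results below.

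By class, the 72 members comprised 17 genes for H2A, 16 for H2B, 15 for H3, 16 for H4, 5 for H3.3-type histones, 1 for the linker histone H1 and 2 short genes, his-39 and his-73, that were given no class. Of all members, 26 had no count in any library, 15 had some counts but too few to be tested, and 31 were tested among the 16013 genes that passed the count filter. The untested genes are described by their counts only. A gene could pass the filter through 1 genotype alone, so medians and counts over the tested members describe those members and not the family.

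The members fell into structural groups that the naming rule did not use. In the WBcel235 annotation, 8 genes had an intron and annotated untranslated regions. They were his-24 (H1), his-35 and his-57 (H2A), his-41 (H2B), his-37 (H4), and his-71, his-72 and his-74 (H3.3-type). All 8 were tested, and together they held 162821 of the 179261 histone counts. The other 64 genes had a single exon with coding sequence only in their model. Of these, 23 were tested, and all 64 together held 16440 counts.

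Some classes were uniform in protein length. All 16 H4 genes encoded 103 residues and all 15 H3 genes 136 residues, while the H2A genes encoded 127 residues, except for a longest product of 147 residues from his-57. Copies within a class have near-identical coding sequences, and the sources used here do not give how the authors' counting treated reads that fit several copies. Counts of single intronless genes are therefore uncertain, and a gene without counts cannot be called silent.

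Genomically, 62 of the 72 members stood in 31 divergent pairs, head to head with a neighbour on the opposite strand. There were 16 pairs of H2A with H2B, 14 pairs of H3 with H4, and 1 pair of H2A with H4, his-68 with his-67. The gap between the 2 genes had a median of 292 bases in H2A and H2B pairs and 255 bases in H3 and H4 pairs. Assigned counts differed between clusters. Because copies are near-identical and the treatment of reads that fit several copies is not given, these counts cannot be read as transcript levels. The cluster of 13 genes on chromosome II, from 13817760 to 13828697, held 104 counts over all 11 libraries, and 97 of them belonged to his-25. A cluster of 6 genes on chromosome V, from 8847393 to 8854053, held no count. Also on chromosome V, from 9544659 to 9547607, the intron-containing genes his-35, his-41 and his-37 held 74811 counts.

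Levels were compared between genes in TPM, a transcript abundance that the authors corrected for gene length and library size. The TPM table listed 39 of the members. Over all 11 libraries his-72 had the highest mean, 311 TPM, followed by his-35 at 272 TPM and his-37 at 264 TPM. Next came his-41 at 183 TPM, his-71 at 167 TPM, his-74 at 76.6 TPM, his-24 at 69.2 TPM and his-70 at 47.1 TPM. The 29 listed intronless genes for H2A, H2B, H3 and H4 ranged from 0.255 to 18.4 TPM, with a median of 3.57 TPM. Neighbours in this order often overlapped. For example, his-35 ranged from 233 to 330 TPM over the libraries and his-37 from 202 to 312 TPM, so the order of these 2 genes was not fixed across libraries.

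**Figure D1:**
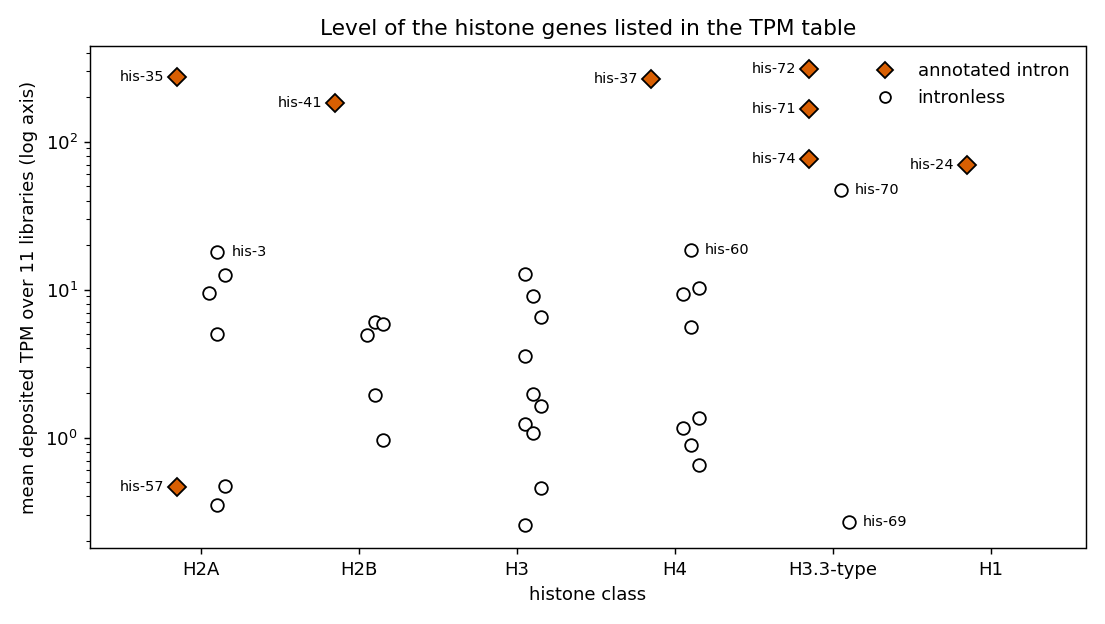
Mean deposited TPM over 11 libraries (log axis) of the 39 histone genes in the TPM table, by histone class; diamonds are genes with an annotated intron and circles intronless genes. Apart from his-57, the genes with an intron sit at 69.2 TPM or above, and the intronless genes for H2A, H2B, H3 and H4 at 18.4 TPM or below.

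The genes with introns supplied between 81.9% and 90.3% of the summed histone TPM of a library. The H3.3-type genes supplied between 91.2% and 95.5% of the summed TPM of all H3 and H3.3-type genes. These shares describe the reads that were assigned to genes. Reads that fit several near-identical intronless copies may be missing from them, since their treatment is not given. Histone transcripts without a poly(A) tail can be depleted by poly(A) selection, and the sources used here do not say whether such a selection was made.

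Tests used edgeR's quasi-likelihood test on the counts with Benjamini-Hochberg adjustment over all 16013 genes, in 1 fit of all 11 libraries, and a gene was called at an adjusted p under 0.05. Adjusted p-values below are from this test unless another is named. The comparisons share libraries, so agreement between them is not independent evidence. Shares of all genes called are given for the fit of all 11 libraries only. Counts of calls with libraries left out therefore have no background beside them.

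The replacement histone gene his-72 (chromosome III, 12367475 to 12369050, minus strand) had the highest mean level and was called in 3 comparisons. It encodes H3.3. In double mutant larvae it had 381, 380 and 349 TPM, in atfs-1(null) larvae 365, 397 and 377 TPM, in nhr-180(cmh19) larvae 225 and 216 TPM, and in wildtype larvae 245, 253 and 230 TPM. Every library that lacked atfs-1 function lay above every library that had it, and the double mutant overlapped with atfs-1(null). In atfs-1(null) against wildtype it rose by 0.55 ± 0.12 (SE) on the log2 scale, with an adjusted p of 0.0137. It rose by 0.61 ± 0.14 in the double mutant against nhr-180(cmh19), with an adjusted p of 0.0150, and 0.47 ± 0.12 in the double mutant against wildtype, with an adjusted p of 0.0255.

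The his-72 transcript was not called for nhr-180(cmh19) on either background. Its log2 fold change was -0.14 ± 0.14 in nhr-180(cmh19) against wildtype (adjusted p = 0.635) and -0.08 ± 0.12 for double mutant against atfs-1(null) larvae (adjusted p = 0.985). A snoRNA gene lies within his-72 on the same strand, and its share of the reads was not tested. The size of the 3 differences was stable, but their calls were near the threshold. For atfs-1(null) against wildtype, the adjusted p was 0.0509 without wildtype replicate 1 and 0.0805 without wildtype replicate 3. In the double mutant against nhr-180(cmh19), it was 0.0587 without double mutant replicate 2, 0.107 without nhr-180(cmh19) replicate 2 and 0.0892 without nhr-180(cmh19) replicate 3. For the double mutant against wildtype, it was 0.0913 and 0.113 without double mutant replicates 1 and 2, and 0.0692, 0.0538 and 0.122 without wildtype replicates 1, 2 and 3.

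The other H3.3 gene, his-71 (chromosome X, 7981382 to 7982070, minus strand), had 188, 178 and 142.04 TPM in double mutant larvae, 162, 185 and 160 TPM in atfs-1(null) larvae, 156 and 154 TPM in nhr-180(cmh19) larvae, and 150, 197 and 169 TPM in wildtype larvae. The 4 genotypes overlapped. Fitted log2 fold changes were -0.15 ± 0.17 in the double mutant against wildtype (adjusted p = 0.556) and -0.12 ± 0.17 in atfs-1(null) against wildtype (adjusted p = 0.669). The ratio of his-72 to his-71 TPM was 2.03, 2.13 and 2.46 in double mutant libraries and 2.26, 2.15 and 2.36 in atfs-1(null) libraries. It was 1.44 and 1.40 in nhr-180(cmh19) libraries and 1.64, 1.28 and 1.36 in wildtype libraries. The ratio thus separated the 6 libraries without atfs-1 function from the other 5 libraries, which is a description and was not tested.

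A further H3.3-type gene with an intron, his-74, had 87.7, 99.1 and 95.3 TPM in double mutant larvae, 106, 65.7 and 80.5 TPM in atfs-1(null) larvae, 64.97 and 60.5 TPM in nhr-180(cmh19) larvae, and 66.4, 56.2 and 60.5 TPM in wildtype larvae. Double mutant libraries lay above all nhr-180(cmh19) and wildtype libraries, while atfs-1(null) overlapped with wildtype. No difference was called in the fit of all 11 libraries, the nearest being the double mutant against wildtype with a log2 fold change of 0.49 ± 0.20 (adjusted p = 0.113). Without atfs-1(null) replicate 1 this comparison was called, with a log2 fold change of 0.46 and an adjusted p of 0.0134. Leaving out the same library also brought the double mutant against nhr-180(cmh19) under the threshold, with a log2 fold change of 0.42 and an adjusted p of 0.0342. Some other processing called these differences too. Against wildtype, the fit of the compared groups only gave an adjusted p of 0.0201, and limma on log2 TPM 0.0228 to 0.0250. Against nhr-180(cmh19), limma gave 0.0447 to 0.0488. DESeq2 called neither.

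The intronless H3.3-type gene his-70 (chromosome III, 4059715 to 4060119, minus strand) showed another pattern. It had 42.2, 46.04 and 42.7 TPM in double mutant larvae, 42.5, 44.5 and 41.3 TPM in atfs-1(null) larvae, 68.5 and 74.1 TPM in nhr-180(cmh19) larvae, and 44.6, 34.2 and 37.2 TPM in wildtype larvae. Only the nhr-180(cmh19) libraries were high, and they overlapped with no other library. It rose in nhr-180(cmh19) against wildtype with a log2 fold change of 0.90 ± 0.17 (adjusted p = 0.0231). It fell in the double mutant against nhr-180(cmh19), with a log2 fold change of -0.85 ± 0.17 (adjusted p = 0.00776). The interaction, which asks whether the effect of nhr-180(cmh19) differed between the backgrounds without and with atfs-1, was -0.91 ± 0.23 with an adjusted p of 0.0991 and so was not called.

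These his-70 calls rested on few libraries. For nhr-180(cmh19) against wildtype, the adjusted p was 0.0901 and 0.111 without wildtype replicates 2 and 3, and 0.0810 and 0.244 without nhr-180(cmh19) replicates 2 and 3. The double mutant against nhr-180(cmh19) had 0.102 without nhr-180(cmh19) replicate 3. With 1 library left in nhr-180(cmh19), that library is assumed to vary like those of the other genotypes. The neighbouring gene his-69, also H3.3-type, had 3, 0 and 3 counts in double mutant libraries, 2, 2 and 0 in atfs-1(null), 5 and 0 in nhr-180(cmh19), and 0, 6 and 1 in wildtype, and was not tested.

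**Figure D2:**
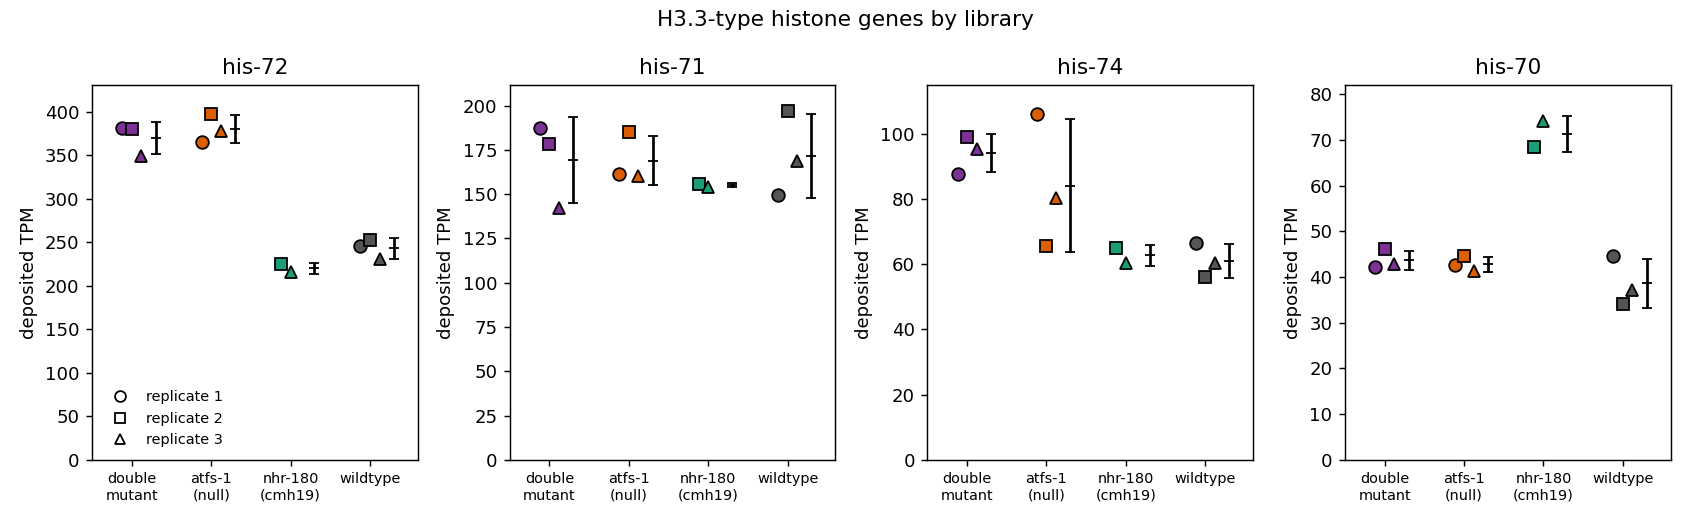
Deposited TPM of the 4 tested H3.3-type genes in each library, by genotype; symbols mark the replicate number, and the bar to the right of each genotype is the mean with its SD (n = 3, and n = 2 for nhr-180(cmh19)). For his-72 the double mutant and atfs-1(null) libraries lie at 349 TPM or above and the others at 253 TPM or below, and for his-70 the nhr-180(cmh19) libraries alone lie above 46.04 TPM.

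The genes with introns for H2A, H2B and H4 overlapped between genotypes in most comparisons. For H2A, his-35 had 234, 287 and 233 TPM in double mutant larvae, 330, 301 and 280 TPM in atfs-1(null) larvae, 238 and 265 TPM in nhr-180(cmh19) larvae, and 254, 272 and 299 TPM in wildtype larvae. For H2B, his-41 had 204, 195 and 149 TPM in double mutant larvae, 188, 205 and 171 TPM in atfs-1(null) larvae, 170 and 160 TPM in nhr-180(cmh19) larvae, and 164, 218 and 192 TPM in wildtype larvae. For H4, his-37 had 265, 283 and 202 TPM in double mutant larvae, 312, 293 and 230 TPM in atfs-1(null) larvae, 291 and 305 TPM in nhr-180(cmh19) larvae, and 209, 279 and 237 TPM in wildtype larvae. None of the 3 genes was called in any comparison. The double mutant lay below nhr-180(cmh19) in every library for his-37, where the log2 fold change was -0.39 ± 0.23 (adjusted p = 0.271). Other genes overlap his-37 on the opposite strand and his-41 on the same strand.

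The linker histone gene his-24, which encodes H1.1, had 85.2, 49.5 and 57.1 TPM in double mutant larvae, 47.7, 66.1 and 79.3 TPM in atfs-1(null) larvae, 73.5 and 72.5 TPM in nhr-180(cmh19) larvae, and 75.7, 83.4 and 71.5 TPM in wildtype larvae. The spread was widest in both genotypes that lack atfs-1 function, and their TPM ranges overlapped with wildtype. In CPM, which are counts scaled by library size, the atfs-1(null) libraries had 41.6, 50.8 and 58.9 and all lay below the wildtype libraries, which had 63.1, 72.2 and 60.02. The fitted log2 fold change of atfs-1(null) against wildtype was -0.37 ± 0.21 (adjusted p = 0.272) and was not called. A log2 fold change of -0.40 ± 0.21 was found in the double mutant against wildtype, with an adjusted p of 0.221. Double mutant replicate 1 decided this value. Without it, the log2 fold change was -0.69 with an adjusted p of 0.0377.

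The intronless genes for H2A, H2B, H3 and H4 had low deposited TPM. The sum over all intronless genes, which includes his-70 at a mean of 47.1 TPM, differed between genotypes and libraries. Their summed level was 208.6, 213.6 and 174.7 TPM in double mutant libraries, 285.4, 166.0 and 157.3 TPM in atfs-1(null) libraries, 259.8 and 272.2 TPM in nhr-180(cmh19) libraries, and 155.3, 146.0 and 150.7 TPM in wildtype libraries. The wildtype libraries lay below all others in TPM. In CPM they did not, since their sums were 51.4 to 53.2, against 52.2 in double mutant replicate 3 and 52.7 and 48.2 in atfs-1(null) replicates 2 and 3. In atfs-1(null), replicate 1 had the highest sum of all 11 libraries while the other 2 replicates were near wildtype. The means were 199 ± 21.2 TPM in the double mutant, 203 ± 71.6 TPM in atfs-1(null), 266 ± 8.73 TPM in nhr-180(cmh19) and 151 ± 4.64 TPM in wildtype (SD, n = 3, with n = 2 for nhr-180(cmh19)).

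As ratios of these means, nhr-180(cmh19) was 1.77 times wildtype, and between 1.72 and 1.81 times when single libraries were left out. The double mutant was 1.32 times wildtype, with a range of 1.27 to 1.40, and 0.748 times nhr-180(cmh19), with a range of 0.721 to 0.794. By summed CPM these 2 ratios were 1.21 and 0.683, outside both ranges. The ratio of atfs-1(null) to wildtype was 1.35, and 1.07 without atfs-1(null) replicate 1. The genes with introns did not share this order. Their sums averaged 1382 ± 134 TPM in the double mutant, 1468 ± 76.8 TPM in atfs-1(null), 1226 ± 11.3 TPM in nhr-180(cmh19) and 1261 ± 97.2 TPM in wildtype. In CPM the averages were 649.3 in the double mutant, 705.5 in atfs-1(null), 621.4 in nhr-180(cmh19) and 644.6 in wildtype.

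**Figure D3:**
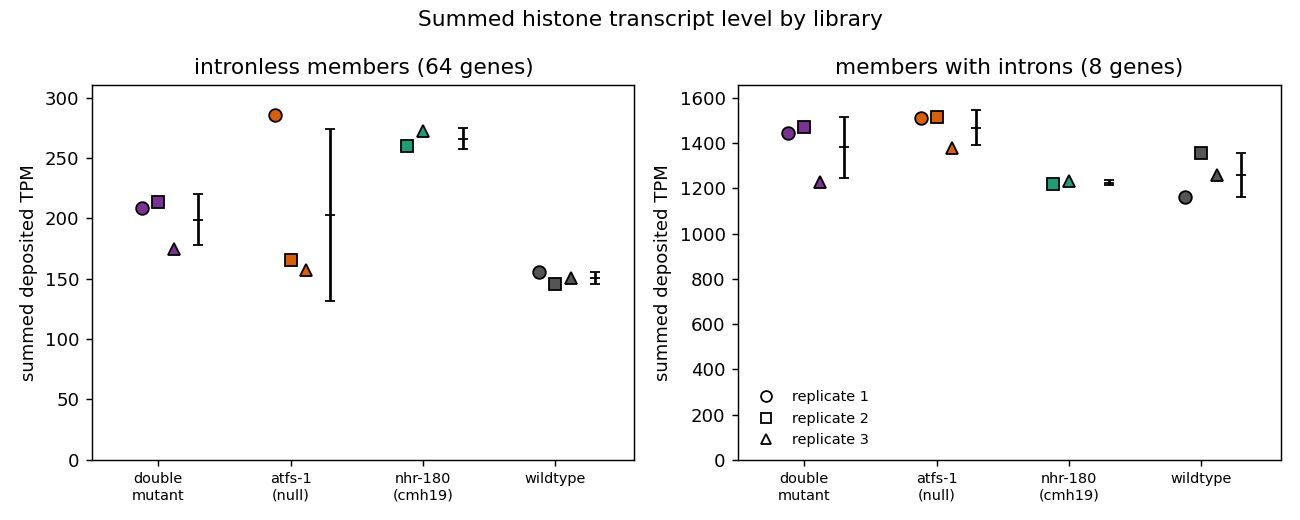
Summed deposited TPM of the intronless and of the intron-containing histone genes in each library, by genotype; symbols mark the replicate number, and the bar to the right of each genotype is the mean with its SD (n = 3, and n = 2 for nhr-180(cmh19)). The intronless sums are 259.8 and 272.2 TPM in nhr-180(cmh19), at most 155.3 TPM in wildtype, and 285.4 TPM in atfs-1(null) replicate 1.

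In nhr-180(cmh19) against wildtype, every core class had a higher intronless sum in nhr-180(cmh19). The sums averaged 70.5 TPM in nhr-180(cmh19) and 34.7 TPM in wildtype for H4, 45.9 TPM in nhr-180(cmh19) and 25.4 TPM in wildtype for H3, 53.02 TPM in nhr-180(cmh19) and 35.6 TPM in wildtype for H2A, and 24.9 TPM in nhr-180(cmh19) and 16.01 TPM in wildtype for H2B. Of the 23 tested intronless genes, which include his-70, 19 had both nhr-180(cmh19) libraries above all wildtype libraries in CPM, and 1 had both below. Over all genes tested, 25% lay above and 22.4% below in the same way. The median log2 fold change of the intronless genes was 0.76, against -0.02 for all genes tested. The 23 genes also include his-25, which passed the count filter through genotypes in which it was high. Near-identical copies read in the same libraries are not separate evidence. Such counts and medians, here and in the comparisons below, are therefore a description only.

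Single genes hardly reached the threshold in this comparison. Of the 31 tested members, 1 was called, his-70, and it was higher. Over all genes, 2.24% were called in either direction, 1.57% higher and 0.662% lower. On simulated data the test recovered 33% of 2-fold changes in this comparison of 2 with 3 libraries. It also recovered 33% in the double mutant against wildtype, with 3 libraries each. The changed genes were drawn from all genes tested, so recovery at low counts is not given. The number of calls depended on atfs-1(null) replicate 1, which is in neither genotype compared but enters the shared estimate of the spread. Without that library 7 members were called, all higher: his-70, his-4 (H2B), his-6 and his-40 (H3), and his-5, his-18 and his-38 (H4). The share of all genes called in that fit is not given here, so these 7 calls have no background beside them. No member was called without wildtype replicate 2, wildtype replicate 3, nhr-180(cmh19) replicate 2 or nhr-180(cmh19) replicate 3.

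Among the tested intronless genes, his-40 had the highest log2 fold change in nhr-180(cmh19) against wildtype. It forms a divergent pair with his-38 on chromosome X, from 7309564 to 7310520. For H3, his-40 had 12.4, 11.5 and 7.53 TPM in double mutant larvae, 13.8, 7.68 and 6.94 TPM in atfs-1(null) larvae, 13.2 and 13.3 TPM in nhr-180(cmh19) larvae, and 3.79, 4.67 and 5.48 TPM in wildtype larvae. Wildtype lay below every other library. The log2 fold change against wildtype was 1.05 ± 0.35 in the double mutant (adjusted p = 0.0630), 0.97 ± 0.35 in atfs-1(null) (adjusted p = 0.0881) and 1.51 ± 0.37 in nhr-180(cmh19) (adjusted p = 0.0646). None was called, and without atfs-1(null) replicate 1 the adjusted p was 0.0141 for the double mutant and 0.0117 for nhr-180(cmh19). Other processing called these differences. For the double mutant, DESeq2 gave an adjusted p of 0.0311, the fit of the compared groups only 0.0362, and limma on log2 TPM 0.0178 to 0.0247. In atfs-1(null), 2 of 3 limma settings gave 0.0480 and 0.0426. In nhr-180(cmh19), DESeq2 gave 0.00840, the fit without a count filter 0.0316, the compared groups only 0.0212, the replicate block 0.0415, and limma 0.0383 to 0.0461.

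The H4 partner his-38 had 11.9, 10.6 and 6.67 TPM in double mutant larvae, 14.7, 5.06 and 6.90 TPM in atfs-1(null) larvae, 18.5 and 16.9 TPM in nhr-180(cmh19) larvae, and 6.49, 8.21 and 7.75 TPM in wildtype larvae. The nhr-180(cmh19) libraries were the highest, and the other genotypes overlapped. The log2 fold change was 1.24 ± 0.43 in nhr-180(cmh19) against wildtype (adjusted p = 0.163) and -0.99 ± 0.42 in the double mutant against nhr-180(cmh19) (adjusted p = 0.128). In nhr-180(cmh19) against wildtype, higher values than that of his-38 were also fitted for his-6 (1.285), his-5 (1.31), his-25 (1.37), his-18 (1.42) and his-67 (1.43), and none was called. The gene his-38 is named as the partner of his-40, and this choice was made after its values were seen.

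The intronless gene with the highest mean TPM in each core class is given here and in the next paragraph. For H4, his-60 had 19.998, 19.2 and 13.7 TPM in double mutant larvae, 25.3, 11.7 and 12.3 TPM in atfs-1(null) larvae, 25.9 and 27.2 TPM in nhr-180(cmh19) larvae, and 16.6, 15.0001 and 15.9 TPM in wildtype larvae. For H2A, his-3 had 15.99, 20.1 and 10.9999 TPM in double mutant larvae, 32.95, 10.9 and 10.1 TPM in atfs-1(null) larvae, 24.03 and 24.2 TPM in nhr-180(cmh19) larvae, and 16.3, 15.3 and 15.3 TPM in wildtype larvae. In both genes the nhr-180(cmh19) libraries lay above wildtype and double mutant libraries, and the atfs-1(null) libraries ran from below wildtype to well above it. The log2 fold change in nhr-180(cmh19) against wildtype was 0.75 ± 0.36 for his-60 (adjusted p = 0.286) and 0.63 ± 0.49 for his-3 (adjusted p = 0.515).

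For H3, his-59, which faces his-60 on chromosome IV, had 16.2, 13.7 and 12.4 TPM in double mutant larvae, 20.4, 8.79 and 9.69 TPM in atfs-1(null) larvae, 13.7 and 16.7 TPM in nhr-180(cmh19) larvae, and 11.1, 8.75 and 8.03 TPM in wildtype larvae. For H2B, his-4, which faces his-3 on chromosome V, had 4.87, 5.73 and 5.12 TPM in double mutant larvae, 8.83, 4.24 and 4.34 TPM in atfs-1(null) larvae, 9.98 and 8.47 TPM in nhr-180(cmh19) larvae, and 5.58, 4.11 and 5.03 TPM in wildtype larvae. For his-59, nhr-180(cmh19) lay above wildtype, and the double mutant did so in TPM but not in CPM, where its replicate 3 had 4.05 and wildtype replicate 1 had 4.12. For his-4 the nhr-180(cmh19) libraries lay above both double mutant and wildtype. In nhr-180(cmh19) against wildtype the log2 fold change of his-59 was 0.72 ± 0.39 (adjusted p = 0.336). That of his-4 was 0.91 ± 0.35 (adjusted p = 0.192). For his-4 the log2 fold change was -0.95 ± 0.34 in the double mutant against nhr-180(cmh19) (adjusted p = 0.0783), and without atfs-1(null) replicate 1 it was called with an adjusted p of 0.00468.

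One intronless gene went the other way. The H3 gene his-32 had 4.16, 3.77 and 2.32 TPM in double mutant larvae, 2.81, 9.29 and 5.76 TPM in atfs-1(null) larvae, 0.878 and 1.58 TPM in nhr-180(cmh19) larvae, and 2.52, 3.596 and 2.54 TPM in wildtype larvae. Its nhr-180(cmh19) libraries were the lowest of all, with a log2 fold change of -1.20 ± 0.54 against wildtype (adjusted p = 0.266). In atfs-1(null) its lowest library was replicate 1, and without that library the gene was called in atfs-1(null) against wildtype, with a log2 fold change of 1.19 and an adjusted p of 0.0479. It was named after its values were seen.

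The other 14 tested members averaged between 1.17 and 12.5 TPM over all libraries, and none was called in any comparison in the fit of all 11 libraries. Against wildtype, their log2 fold changes ran from -0.39 to 0.89 in the double mutant, from -0.43 to 1.20 in atfs-1(null) and from 0.12 to 1.43 in nhr-180(cmh19), where all 14 were positive. For the double mutant they ran from -0.66 to 0.33 against atfs-1(null) and from -0.89 to 0.49 against nhr-180(cmh19).

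In atfs-1(null) against wildtype, 3 of the 31 tested members rose and none fell. Over all genes, 14.3% were called, 7.54% higher and 6.77% lower. The members that rose were his-72 and the low-level genes his-25 and his-57. Both low-level genes passed the count filter through libraries of the genotypes in which they were high, so their calls are a description and support nothing further. An intronless H3 gene, his-25 had 10, 11 and 8 counts in double mutant libraries, 24, 12 and 9 in atfs-1(null), 8 and 7 in nhr-180(cmh19), and 2, 3 and 3 in wildtype. Wildtype lay below every other library. The log2 fold change against wildtype was 1.69 ± 0.49 in the double mutant (adjusted p = 0.0390) and 2.28 ± 0.46 in atfs-1(null) (adjusted p = 0.00813). With 1 library left out, the adjusted p ranged from 0.0105 to 0.107 for the double mutant and from 0.00574 to 0.0377 for atfs-1(null). A fold change at so few counts depends on the prior count of the fit.

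The H2A gene his-57, which has introns, had 3, 5 and 4 counts in double mutant libraries, 14, 13 and 7 in atfs-1(null), 7 and 7 in nhr-180(cmh19), and 3, 3 and 3 in wildtype. It passed the count filter through atfs-1(null) replicates 1 and 2 alone. The double mutant overlapped with wildtype, and every atfs-1(null) library lay above both. Its log2 fold change in atfs-1(null) against wildtype was 1.71 ± 0.39 (adjusted p = 0.0149). It had an adjusted p of 0.0514 without wildtype replicate 1 and 0.0566 without wildtype replicate 3, and without atfs-1(null) replicate 1 or 2 it did not pass the count filter. The gene klp-12 overlaps it on the opposite strand. Without wildtype replicate 1 or 3, the number of members called in atfs-1(null) against wildtype was 1, his-25.

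The median log2 fold change of the 31 tested members in atfs-1(null) against wildtype was 0.40, against 0.06 for all genes tested. It was -0.09 without atfs-1(null) replicate 1, so that 1 library decided its sign. That library had the highest level of 14 of the 23 tested intronless genes. Of these 23 genes, 3 had every atfs-1(null) library above every wildtype library and none had every library below, while over all genes tested 16.3% lay above and 15.3% below.

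Set against wildtype, the double mutant had 2 of the 31 tested members higher, his-72 and his-25, and none lower. Over all genes, 16.3% were called, 10.1% higher and 6.27% lower. The median log2 fold change of the members was 0.28, against 0.02 for all genes tested. All double mutant libraries lay above all wildtype libraries in 8 of the 23 tested intronless genes, and in none did all lie below, where over all genes 24.1% lay above and 19.8% below. These shares of all genes hold for the fit of all 11 libraries only. The count of member calls moved with single libraries. It was 5 without atfs-1(null) replicate 1, adding his-40, his-6 and his-74. It was 1 without double mutant replicate 1 (his-24, lower), double mutant replicate 3, nhr-180(cmh19) replicate 2 or nhr-180(cmh19) replicate 3, and 0 without double mutant replicate 2 or any 1 of the wildtype libraries.

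In the double mutant against nhr-180(cmh19), which removes atfs-1 function from nhr-180(cmh19) animals, his-72 rose and his-70 fell among the 31 tested members. Over all genes, 18.5% were called, 10.3% higher and 8.21% lower. The median log2 fold change was -0.47 over the 23 tested intronless genes and -0.08 over the 8 genes with introns, against -0.01 for all genes tested. Of the intronless genes, 12 had every double mutant library below both nhr-180(cmh19) libraries and 2 had every one above, where over all genes 26.7% lay below and 28.2% above. All 7 tested H4 genes had negative log2 fold changes, between -0.99 and -0.39, and none was called.

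Without atfs-1(null) replicate 1, 8 members were called in the double mutant against nhr-180(cmh19). Of these, his-72 and his-74 were higher, and his-70, his-3, his-4, his-18, his-38 and his-60 were lower. The share of all genes called in that fit is not given here. There was 1 call without double mutant replicate 2 or nhr-180(cmh19) replicate 2, and none without nhr-180(cmh19) replicate 3.

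Between double mutant and atfs-1(null) larvae, a comparison that adds nhr-180(cmh19) to animals without atfs-1 function, no member was called by edgeR's quasi-likelihood test or by DESeq2. Over all genes, 0.443% were called, 0.312% higher and 0.131% lower. None of the 23 tested intronless genes had separate libraries, where over all genes 6.03% lay above and 6.1% below. At an unadjusted p under 0.05 by edgeR, 1 member was lower, his-57, and none was higher. Of all 16013 genes, 724 were higher and 715 lower at that cut-off. The median log2 fold change was -0.08 over the 31 members and 0.39 without atfs-1(null) replicate 1.

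The interaction of the 2 mutations was not called for any member by edgeR, and 1.14% of all genes were called, 0.275% higher and 0.862% lower. At an unadjusted p under 0.05 by edgeR, 7 members had a lower interaction and none a higher one. Of all 16013 genes, 1367 had a lower and 1013 a higher one at that cut-off. DESeq2 called 1 member, his-70, with an adjusted p of 0.0158. The median was -0.78 over the 31 members, against 0.01 for all genes tested. Without atfs-1(null) replicate 1 it was -0.17. Without atfs-1(null) replicate 3, 1 member was called by edgeR's quasi-likelihood test, his-57, with an adjusted p of 0.0476.

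**Figure D4:**
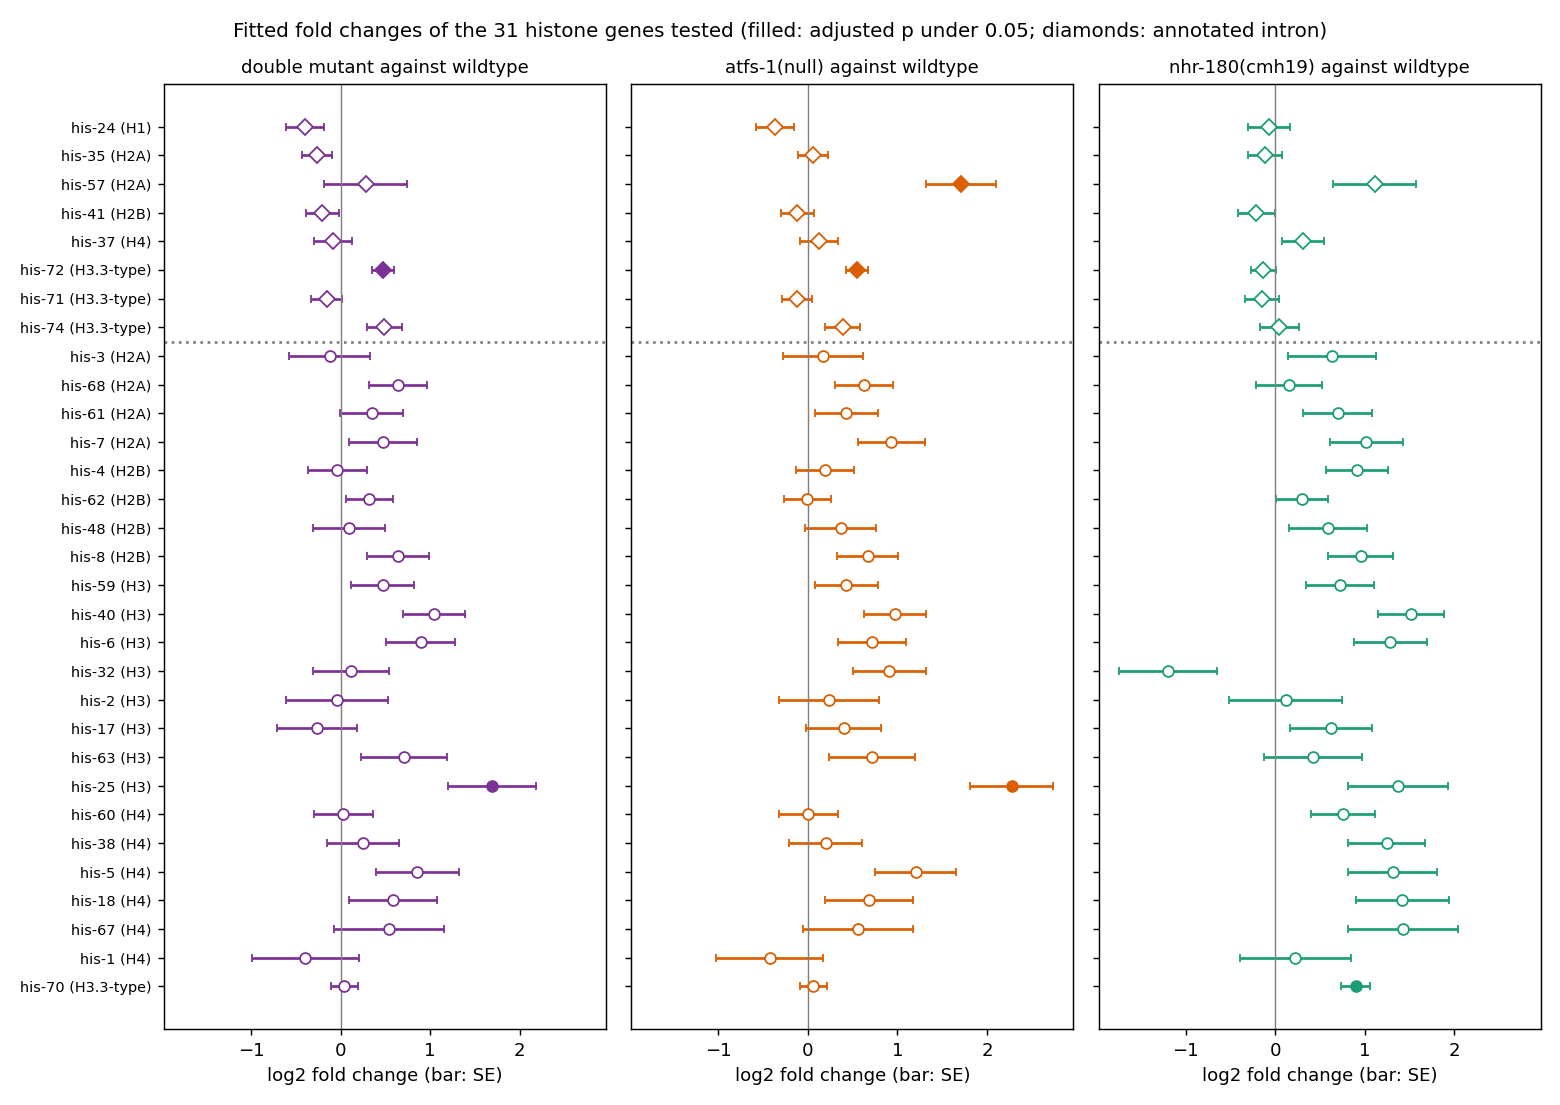
Log2 fold change with its SE (horizontal axis) of the 31 tested histone genes (rows) in the double mutant, atfs-1(null) and nhr-180(cmh19), each against wildtype; diamonds above the dotted line are genes with an annotated intron, circles below it are intronless, and filled symbols are genes called at an adjusted p under 0.05. In nhr-180(cmh19) against wildtype the intronless genes lie right of 0 except for his-32 at -1.20, and his-70 alone is filled.

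Calls among genes of histone supply lay mainly in the double mutant. This list held 14 genes for the stem-loop binding protein, chaperones and chromatin assembly factors. Of the 14, 8 rose and none fell in the double mutant against wildtype, with a median log2 fold change of 0.54. Against nhr-180(cmh19), 9 rose in the double mutant and none fell. In atfs-1(null) against wildtype 3 rose, which were lin-53 and the histone chaperone genes nasp-1 and nasp-2. In nhr-180(cmh19) against wildtype none was called and the median was -0.13. At an unadjusted p under 0.05 by edgeR, 2 were lower there, where 1154 of all 16013 genes were lower. Over all genes, 10.1%, 10.3%, 7.54% and 1.57% were called higher in these comparisons, in the order given. At a share of 1.57%, the lack of calls among 14 genes says little about the list. Without wildtype replicate 2, 1 of these genes was called in the double mutant against wildtype, 7 in the double mutant against nhr-180(cmh19) and none in atfs-1(null) against wildtype, where the median log2 fold changes were 0.48, 0.73 and 0.36. The counts were 9, 13 and 0 without atfs-1(null) replicate 1, all higher. The shares of all genes called in these other fits are not given here.

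The stem-loop binding protein gene cdl-1 had 63.9, 62.8 and 90.8 TPM in double mutant larvae, 52.9, 46.6 and 68.1 TPM in atfs-1(null) larvae, 36.1 and 31.3 TPM in nhr-180(cmh19) larvae, and 45.9, 32.2 and 39.6 TPM in wildtype larvae. All double mutant libraries lay above all nhr-180(cmh19) and wildtype libraries. For cdl-1 the log2 fold change was 0.96 ± 0.20 in the double mutant against nhr-180(cmh19) (adjusted p = 0.0110) and 0.74 ± 0.18 in the double mutant against wildtype (adjusted p = 0.0175). In nhr-180(cmh19) against wildtype it was -0.22 ± 0.20 (adjusted p = 0.594).

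Among assembly factors, lin-53, which encodes a histone-binding subunit of several chromatin complexes, had 98.2, 106 and 121 TPM in double mutant larvae, 101, 92.0 and 103 TPM in atfs-1(null) larvae, 59.2 and 53.2 TPM in nhr-180(cmh19) larvae, and 70.5, 65.99 and 69.8 TPM in wildtype larvae. The libraries without atfs-1 function did not overlap with the others. The H3.3 chaperone gene hira-1 had 13.6, 15.1 and 19.2 TPM in double mutant larvae, 9.54, 11.1 and 14.4 TPM in atfs-1(null) larvae, 10.2 and 7.71 TPM in nhr-180(cmh19) larvae, and 11.1, 8.52 and 10.3 TPM in wildtype larvae. Unlike his-72, hira-1 overlapped between atfs-1(null) and wildtype, with a log2 fold change of 0.13 ± 0.16 (adjusted p = 0.625). Against wildtype, hira-1 rose in the double mutant by 0.54 ± 0.16 on the log2 scale (adjusted p = 0.0401).

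Histone genes outside the his name class formed a list of 12, of which 11 were tested. In the double mutant 2 of them rose against both wildtype and nhr-180(cmh19), and both encode centromeric H3, hcp-3 and cpar-1. Over all genes, 10.1% were called higher against wildtype, and 10.3% higher and 8.21% lower against nhr-180(cmh19). In atfs-1(null) against wildtype, 6.77% of all genes were called lower. The hcp-3 transcript had 41.3, 50.1 and 48.4 TPM in double mutant larvae, 46.5, 28.3 and 39.7 TPM in atfs-1(null) larvae, 26.3 and 23.6 TPM in nhr-180(cmh19) larvae, and 29.8, 20.7 and 23.97 TPM in wildtype larvae. Its double mutant libraries lay above all nhr-180(cmh19) and wildtype libraries, with a log2 fold change of 0.77 ± 0.21 against wildtype (adjusted p = 0.0313). For cpar-1 that log2 fold change was 1.47 ± 0.34 (adjusted p = 0.0143). The linker histone genes hil-2 and hil-3 fell in the double mutant against nhr-180(cmh19), by 0.65 and 0.59 on the log2 scale, with adjusted p-values of 0.0360 and 0.0463. In atfs-1(null) against wildtype, hil-8, also a linker histone gene, fell by 0.90 (adjusted p = 0.0302). Without wildtype replicate 2, no gene of this list was called in the double mutant or in atfs-1(null) against wildtype. Without atfs-1(null) replicate 1, 4 were higher and 1 lower in the double mutant against wildtype, and none was called in atfs-1(null) against wildtype.

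Lists of replication and germline genes moved with some of these results. Of 36 tested DNA replication genes, 22 rose in the double mutant against wildtype, 24 in the double mutant against nhr-180(cmh19), 5 in atfs-1(null) against wildtype and none in nhr-180(cmh19) against wildtype, and none fell in any of these. Over all genes, 10.1%, 10.3%, 7.54% and 1.57% were called higher in these comparisons, in the same order. In nhr-180(cmh19) against wildtype the replication genes had a median log2 fold change of -0.16, where that of the intronless histone genes was 0.76. At an unadjusted p under 0.05 by edgeR, 1852 of all 16013 genes were higher there and 1154 lower. Of the replication genes, none was higher and 3 were lower at that cut-off. Their summed level ranged from 2325 to 2700 CPM in double mutant libraries, from 1711 to 2510 CPM in atfs-1(null) libraries, and was 1461 CPM in both nhr-180(cmh19) libraries. In wildtype libraries it ranged from 1482 to 1757 CPM. Without wildtype replicate 2, 10 rose in the double mutant against wildtype, 22 in the double mutant against nhr-180(cmh19) and none in atfs-1(null) against wildtype, and the median in nhr-180(cmh19) against wildtype was -0.21. Those 3 counts were 31, 31 and 1 without atfs-1(null) replicate 1. The shares of all genes called in these other fits are not given here.

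The 20 oocyte genes had summed levels of 2432 to 3537 CPM in double mutant libraries, 784 to 2084 CPM in atfs-1(null) libraries, 806 to 955 CPM in nhr-180(cmh19) libraries and 474 to 1022 CPM in wildtype libraries. Over all genes, 10.1% were called higher in the double mutant against wildtype, 10.3% against nhr-180(cmh19) and 7.54% in atfs-1(null) against wildtype. Of the 20 oocyte genes, 18 rose in the double mutant against wildtype and 18 against nhr-180(cmh19), while 2 rose in atfs-1(null) against wildtype. There, at an unadjusted p under 0.05 by edgeR, 15 were higher and none lower, against 2656 higher and 2124 lower among all 16013 genes. The median log2 fold change there was 1.14. That median was 0.50 without atfs-1(null) replicate 1, with 1 gene called higher and 1 lower, and without wildtype replicate 2 it was 0.95 with 1 called higher. Against wildtype, 16 rose in the double mutant without wildtype replicate 2 and 19 without atfs-1(null) replicate 1, with no all-gene share given for either. Their double mutant libraries thus stood apart where his-72 did, but their atfs-1(null) libraries overlapped with wildtype, where those of his-72 did not.

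The 47 sperm genes had summed levels of 3159 to 4153 CPM in double mutant libraries, 1858 to 5304 CPM in atfs-1(null) libraries, 2732 to 3052 CPM in nhr-180(cmh19) libraries and 950 to 2616 CPM in wildtype libraries. In nhr-180(cmh19) against wildtype, 47 of 47 had a positive log2 fold change, with a median of 0.65, and none was called. At an unadjusted p under 0.05 by edgeR, 7 were higher and none lower, against 1852 higher and 1154 lower among all 16013 genes. Without wildtype replicate 2, 46 of 47 were positive with a median of 0.35. In atfs-1(null) against wildtype the median was 0.81, and 0.25 without atfs-1(null) replicate 1. No sperm gene was called in the double mutant against wildtype, with a median of 0.99, while 29 were higher without atfs-1(null) replicate 1. The sperm genes and the intronless histone genes were thus both higher in both nhr-180(cmh19) libraries than in all wildtype libraries by their sums. Both were highest in atfs-1(null) replicate 1 by their medians. The double mutant had higher sperm gene sums than nhr-180(cmh19) and lower intronless histone sums. Gene by gene, 32 of the 47 sperm genes had a positive log2 fold change in that comparison, with a median of 0.26 and a lowest value of -0.93, and 2 were called lower and none higher. Over all genes, 10.3% were called higher and 8.21% lower in the double mutant against nhr-180(cmh19), and 10.1% higher against wildtype. In the single mutants against wildtype, 7.54% were called higher for atfs-1(null) and 1.57% for nhr-180(cmh19). Of 19 genes of germline proliferation and meiosis, 5 rose in the double mutant against wildtype, 3 against nhr-180(cmh19), and none was called in either single mutant against wildtype. Without wildtype replicate 2, 1 of them rose in the double mutant against wildtype, and without atfs-1(null) replicate 1, 8 rose there and 5 against nhr-180(cmh19). No gene of the replication, oocyte, sperm or proliferation lists that was found in the files was at 0 in any library. The part of germline content in the histone results was not tested.

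**Figure D5:**
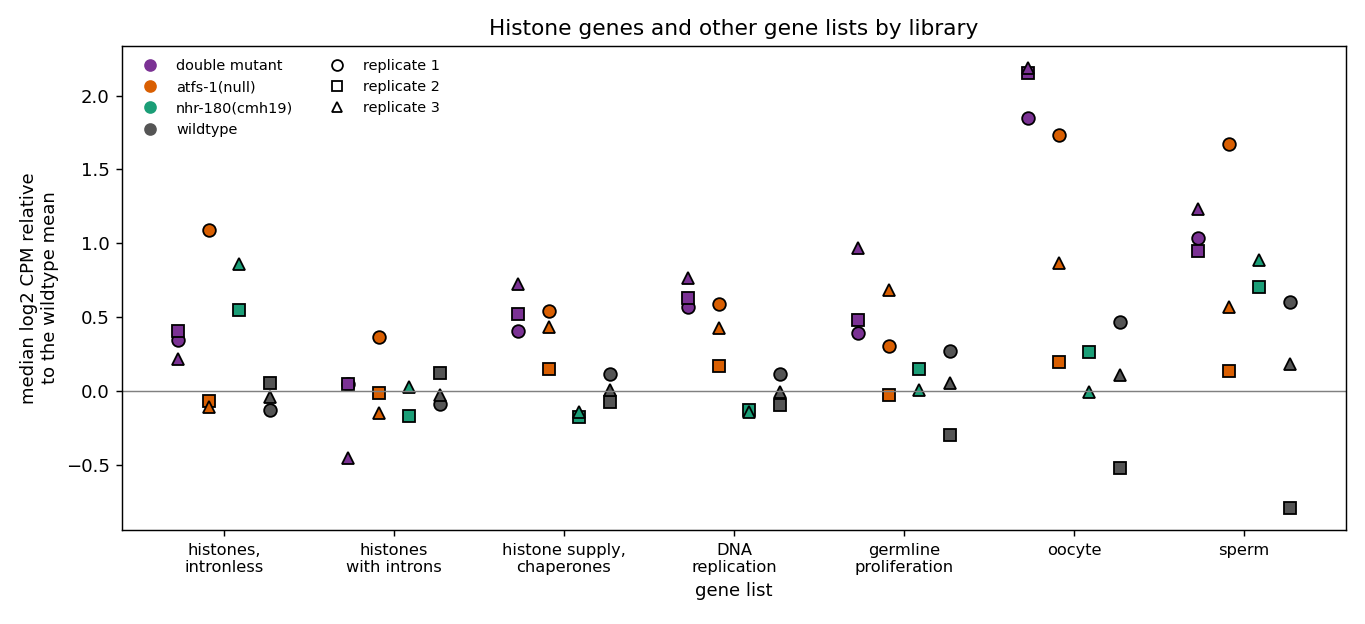
Median log2 CPM of each gene list relative to its wildtype mean (vertical axis) in each library; colours mark the genotype and symbols the replicate number. The intronless histone genes and the sperm genes are highest in atfs-1(null) replicate 1 (1.09 and 1.67), while replication and histone supply genes lie below 0 in both nhr-180(cmh19) libraries.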

How the data were processed

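The members and the gene lists were chosen with earlier results of these data known. The deposited count table holds unnormalised counts per gene, and featureCounts 1.5.2 is the counter named in the submitters' processing notes. TPM values, also deposited by the authors, are corrected for length and come from the same reads. The sources used here do not give the aligner, the annotation release, the strand setting or the treatment of multi-mapping reads. All 72 members had the same start and end in the WBcel235 annotation (Ensembl), which gave exons, untranslated regions and overlaps; gene names are those of the count table. Histone classes came from general knowledge of the worm histone family and from coding length.

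Counts were filtered with filterByExpr, scaled by TMM and fitted with edgeR 4.0.16 (R 4.3.3) with 1 mean per genotype over 11 libraries; calls used Benjamini-Hochberg adjusted p under 0.05, two-sided. CPM are counts scaled by the TMM-adjusted library size, and log2 CPM used a prior count of 2. Intervals of single values are SD over libraries, and errors of log2 fold changes are SE. No pair of libraries agreed within sampling noise. On simulated data with 200 of 16013 genes changed, 46% of 2-fold and 92% of 4-fold changes were recovered in atfs-1(null) against wildtype. The shares were 33% and 86% in nhr-180(cmh19) against wildtype, and 33% and 93% in the double mutant against wildtype.

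The text gives all libraries for his-24, his-35, the H3.3-type genes, the 2 members with the highest mean TPM of each core class, and called members; his-32 and his-38 were added after their values were seen, and other members are given by range. Alternatives used DESeq2 1.42.0, limma 3.58.1 on log2 TPM, other filters, fewer groups, the replicate block and leaving out libraries. No sequence is printed, and a search for stem-loops was not run.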

Additional observations from a re-analysis of the deposited data

How the results depend on the processing

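Some results changed under other processing. Counts of called members in these other fits are given without the share of all genes called. In atfs-1(null) against wildtype the count of called members was 3, 0 when the compared groups alone were fitted, and 1 to 4 with 1 library left out. In nhr-180(cmh19) against wildtype it was 1, and 2 without a filter, with DESeq2 and in 3 limma settings. It was 3 with the replicate block, 6 with the compared groups only, 5 without both libraries that stood apart (wildtype replicate 2 and atfs-1(null) replicate 1, an alternative chosen after seeing the data), and 0 to 7 with 1 library left out. The median there was 0.63, and 0.88 with the block, 0.39 and 0.30 with limma on log2(TPM + 1) with and without a minimum, and 0.47 to 0.72 with 1 library left out. In the double mutant against nhr-180(cmh19) the count was 2, 5 with the compared groups only, 8 without both libraries, and 0 to 8 with 1 left out; the median of -0.39 was -0.58 with the block and -0.21 with limma without a minimum. In the double mutant against wildtype the count was 2, 0 without a filter, 4 with the 3 limma settings, 5 without both libraries and 0 to 5 with 1 left out. For the interaction it was 0, 1 with DESeq2 and with limma without a minimum, and 0 to 1 with 1 left out. Without both libraries the median was 0.39 for double mutant against atfs-1(null) larvae and -0.20 for the interaction. With 1 library left out, medians ranged from -0.093 to 0.543 in atfs-1(null) against wildtype, -0.23 to 0.39 for double mutant against atfs-1(null) larvae, 0.14 to 0.41 in the double mutant against wildtype, and -0.94 to -0.17 for the interaction. The uncalled log2 fold change of his-71 changed sign, to 0.12 with limma in the double mutant against nhr-180(cmh19) (-0.11 to 0.14 with 1 library left out), and ranged from -0.219 to 0.009 in atfs-1(null) against wildtype. The cause was not tested. The call of his-72 in atfs-1(null) against wildtype was lost without a filter (adjusted p = 0.0505) and with the compared groups only (0.050002), and that of his-57 with DESeq2 (0.0579).

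Whether the replicate numbers pair the libraries could not be decided. Deviations from the group means correlated between -0.41 and 0.61 for same-numbered libraries, with a median of 0.064. For libraries with different numbers the range was -0.54 to 0.41, with a median of -0.081. With 2 or 3 libraries per genotype, deviations from the group mean are tied to each other, so these correlations cannot exclude pairing. Precision is limited by 2 or 3 libraries per genotype and, for intronless genes, by counts of single genes as low as 1. Multi-mapping, strand setting and RNA selection are unknown, and the stem-loop alternative was not run because no genome sequence was used here.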

Other observations

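Histone H2B genes fell into a pair of lengths. The 5 genes whose product has 122 residues held 1 count over all 11 libraries together, while the 11 genes of 123 residues held 22144 counts, 20528 of them from his-41. Members that another gene overlaps numbered 11, and they held 102832 of the 179261 histone counts.

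Partners of a divergent pair differed in deposited TPM. In the pair of H2A and H4 on chromosome I, his-68 averaged 12.5 TPM and his-67 averaged 1.37 TPM over 11 libraries. In the pair his-47 and his-48, the averages were 0.472 TPM for the H2A gene his-47 and 4.94 TPM for the H2B gene his-48. The pair his-38 and his-40 was closer, at 10.3 and 9.12 TPM. No test was made of these differences.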
